A study of Homo sapiens with 145 samples.

Results

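The CYP4F fatty acid hydroxylases described here are 4 genes, CYP4F2, CYP4F3, CYP4F11 and CYP4F12, of the 19774 genes that had a probe set with 1 gene symbol on the array. The genes were chosen by their platform symbols, with earlier results of these arrays known, and where a gene had several probe sets the one with the highest overall mean was to be used. Each of the 4 had exactly 1 such probe set (210452_PM_x_at, 206515_PM_at, 206153_PM_at and 206539_PM_s_at, in the order above). CYP4F2 and CYP4F3 passed the filter on low values, a log2 value of at least 4 in at least 5 arrays, and were tested with 12070 genes in all. Their arrays at 4 or more were all dosed ones, most of them with quercetin. CYP4F11 and CYP4F12 were under 4 in every array, so they were not in the limma fit and only their levels are described. The letters x and s in a probe set's name mark probes that can also bind related transcripts. How far the CYP4F2 and CYP4F3 probe sets also read each other's transcript, or that of another CYP4F gene, was not tested.

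The cells were HT-1080, an established human fibrosarcoma line that grows attached and carries fibroblast-like markers. They were exposed for 24 h to 1 of 3 chemicals dissolved in DMSO, and each chemical had its own DMSO group as the vehicle control. Etoposide, a poison of topoisomerase II that leaves DNA breaks, was given at 0.003, 0.01, 0.03, 0.1, 0.3, 1 and 3 µM. Methyl methanesulfonate (MMS), which methylates DNA bases, was given at 1, 3, 10, 30, 100, 300 and 500 µM, and quercetin, a plant flavonol, at 1, 3, 10, 30, 60, 80 and 100 µM.

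CYP4F enzymes are cytochrome P450 monooxygenases of the endoplasmic reticulum that put a hydroxyl group on the far (omega) end of fatty acids and related chains, with electrons from cytochrome P450 reductase. CYP4F2 hydroxylates arachidonic acid and the side chains of vitamin K and vitamin E, and CYP4F3 is known for inactivating leukotriene B4. CYP4F11 and CYP4F12 hydroxylate fatty acids and some drugs. The family is best known from liver, kidney, gut and, for CYP4F3, neutrophils, not from fibroblast-like cells.

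In RefSeq the genes lie near each other on chromosome 19, in the order CYP4F22, CYP4F8, CYP4F3, CYP4F12, CYP4F2 and CYP4F11. Of the 4 members, 3 had a promoter window in the RefSeq table, and CYP4F11 had 2 of them, called outer and inner here. CYP4F12 had none in it. The sequence of 250 bases before the start of CYP4F2 is shown whole because CYP4F2 was the member called under both quercetin and etoposide. A call needs an adjusted p under 0.05 and a change of at least 1.5-fold. CYP4F3 at 3 µM of etoposide fell just short of that fold (1.48). The CYP4F2 window is set beside the outer CYP4F11 window because the CYP4F11 probe set stayed under 4. In an alignment 64.26% of bases were identical (178 of 277 positions). All are written 5′ to 3′ on the gene's strand in build GRCh38.p14, and capitals mark the letters ATTGG, the reverse complement of the CCAAT box.
CYP4F2 (chr19:15898075-15898324, - strand): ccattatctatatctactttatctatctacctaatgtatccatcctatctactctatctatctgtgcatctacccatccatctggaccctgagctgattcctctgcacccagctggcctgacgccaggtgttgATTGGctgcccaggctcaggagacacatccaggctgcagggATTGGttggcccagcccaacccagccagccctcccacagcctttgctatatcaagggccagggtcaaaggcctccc
CYP4F11 outer (chr19:15934868-15935117, - strand): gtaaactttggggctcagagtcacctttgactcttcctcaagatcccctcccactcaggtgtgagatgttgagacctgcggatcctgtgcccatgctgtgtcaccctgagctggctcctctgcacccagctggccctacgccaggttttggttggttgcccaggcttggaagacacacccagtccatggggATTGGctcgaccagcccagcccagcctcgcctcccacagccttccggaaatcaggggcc
The CYP4F3 window shared 48.43% of aligned bases with that of CYP4F2 and 60.9% with the inner CYP4F11 window. In the next lines 29 bases of each show a stretch around TGATTCA, a match of TGANTCA, in capitals. TGANTCA is looser than the AP-1 site, which has C or G at its centre, so TGATTCA is not that site.
CYP4F3 (chr19:15641136-15641164, + strand): caacgtcctaaTGATTCAggctgggcctt
CYP4F11 inner (chr19:15934649-15934677, - strand): caacctcccagTGATTCAggctgggcctt

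A set of 4 motifs was searched on both strands of the 250 bases, namely ATTGG and TGANTCA as above, the core bound by the aryl hydrocarbon receptor, GCGTG, and the antioxidant element bound by NRF2, written TGACNNNGC. The CYP4F2 window held 2 matches of ATTGG, with the first base of each 117 and 76 bases before the start, and no match of the others. The CYP4F3 window held 1 match of TGANTCA, 165 bases before the start, and none of the others. None of the 4 motifs was found in both of these windows. The CYP4F11 windows held matches of ATTGG in both, of TGANTCA in the inner one and of TGACNNNGC in the outer one, 156 bases before the start. Among 35116 RefSeq windows of the same length, ATTGG was found in 32%, TGANTCA in 6.57%, GCGTG in 32.2% and TGACNNNGC in 10.9%. A match is a string of letters and was not tested for binding. Bases outside these windows were not searched, and a role of any motif in the changes was not tested.

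The analysis used 127 replicates from 129 of the 145 arrays, after 2 pairs of arrays with the same number and group were averaged. Each etoposide and quercetin group held 5 replicates and each MMS group 6, or 5 at 500 µM. The labels do not say that the numbers stand for separate cultures, so p-values measure the spread between these samples, which may be technical. The 8 arrays numbered 2 in the etoposide experiment and the 8 in the quercetin experiment were left out of all values unless said otherwise, because their responses go against their labels. Array medians of the 3 chemicals did not overlap (3.51 to 3.58 for etoposide, 3.08 to 3.17 for MMS and 3.33 to 3.41 for quercetin), so levels were read only against the vehicle of the same chemical. Arrays give no read depth, and their number limits the precision. All 6 mesenchymal markers, among them vimentin and fibronectin, had a mean of at least 4 over the vehicle replicates of all 3 experiments pooled. In the MMS vehicle alone COL5A1 was under 4, at 3.51. None of 5 hepatocyte, 5 epithelial and 6 blood cell markers did, and the vehicle means of these lay between 2.49 and 3.50. In cells measured in bulk, a change in the number of cells that express a gene and a change in RNA per cell cannot be told apart.

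In the vehicle groups all 4 members were at levels that are not above background. A group mean under 4 on the log2 scale was read that way throughout, and the size of a change from such a mean is uncertain. CYP4F3 had vehicle means of 2.81 ± 0.27 (SD, n = 5) in the quercetin experiment, 2.76 ± 0.11 (n = 5) in the etoposide experiment and 2.31 ± 0.09 (n = 6) in the MMS experiment. For CYP4F2 they were 2.36 ± 0.19, 2.50 ± 0.11 and 2.42 ± 0.15.

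Quercetin raised CYP4F3 from background to above 4 in all 5 replicates between 10 and 30 µM, and CYP4F2 in 3 of 5 at 30 µM and in all 5 from 60 µM on. At 60 µM the rise was 4.34 ± 0.26 (change on the log2 scale ± SE) for CYP4F3 and 3.97 ± 0.29 for CYP4F2, and at 80 and 100 µM the levels were like those at 60 µM. CYP4F3 had the largest rise of all 12070 genes at 60, 80 and 100 µM. CYP4F2 had the third largest rise at 60 µM and the second largest at 80 and 100 µM. These ranks are a description, since both genes passed the filter mainly through quercetin arrays and rose from means at background. CYP4F11 and CYP4F12 stayed under 4 at every dose.

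**Figure D1:**
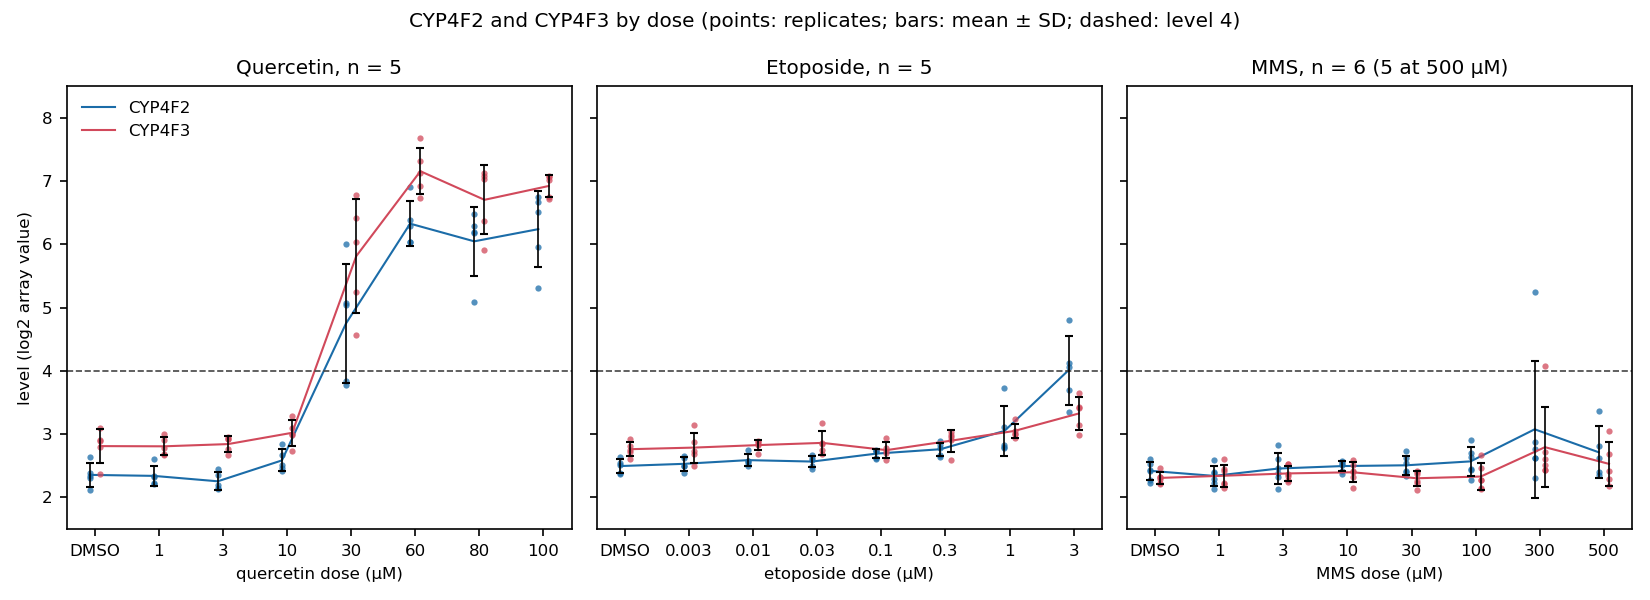
Levels (log2 array values, y axis) of CYP4F2 and CYP4F3 against dose (µM, evenly spaced) in the 3 experiments; points are replicates, black bars mean ± SD, lines join the means, and the dashed line marks 4. Under quercetin CYP4F3 lies at 4.57 or more from 30 µM on, and CYP4F2 at 5.09 or more from 60 µM on. Under etoposide CYP4F2 reaches a mean of 4.01 at 3 µM. Under MMS 1 replicate at 300 µM stands at 5.24 for CYP4F2 and 4.07 for CYP4F3.

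CYP4F3, the leukotriene hydroxylase, was at 2.37, 2.91, 3.09, 2.89 and 2.79 in the 5 quercetin vehicle replicates (numbers 1, 3, 4, 5 and 6). At 1, 3 and 10 µM its means were 2.81, 2.84 and 3.02, and the vehicle and these 3 doses together spanned 2.37 to 3.29. The replicates of each of these doses overlapped the vehicle, and CYP4F3 was not called at any of them. A gene was called at a Benjamini-Hochberg adjusted p under 0.05 in limma, over all 12070 genes, together with a change of at least 1.5-fold.

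At 30 µM CYP4F3 stood at 6.42, 6.79, 6.04, 4.57 and 5.25 in numbers 1, 3, 4, 5 and 6. All 5 lay above every vehicle replicate, with numbers 5 and 6 the lowest. The rise was 3.00 ± 0.26 (limma adjusted p = 8.03e-11), the fourth largest of all genes. At 60 µM the values were 6.93, 7.32, 7.67, 6.73 and 7.12, at 80 µM 6.36, 5.91, 7.03, 7.08 and 7.13, and at 100 µM 6.71, 6.74, 7.02, 7.08 and 7.06. No replicate at these doses came near the vehicle, and the spread was smallest at 100 µM (SD 0.18) and largest at 30 µM (SD 0.90). The changes from vehicle were 4.34 ± 0.26, 3.89 ± 0.26 and 4.11 ± 0.26 (limma adjusted p = 6.90e-15, 1.04e-13 and 2.00e-14).

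CYP4F2, the vitamin K and vitamin E hydroxylase, was at 2.64, 2.30, 2.33, 2.11 and 2.39 in the same vehicle replicates. Its means at 1, 3 and 10 µM were 2.34, 2.26 and 2.58, each dose overlapped the vehicle, and it was not called there. At 30 µM it stood at 5.07, 6.01, 5.05, 3.78 and 3.84. Numbers 5 and 6 were again the lowest and stayed just under 4, but all 5 lay above the vehicle, and the rise was 2.39 ± 0.29 (limma adjusted p = 6.64e-08), the 16th largest.

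At 60 µM CYP4F2 was at 6.03, 6.39, 6.90, 6.03 and 6.28, at 80 µM at 6.19, 5.09, 6.47, 6.19 and 6.29, and at 100 µM at 5.96, 5.31, 6.67, 6.75 and 6.51. Number 3 was the lowest of its group at both 80 and 100 µM, and no replicate overlapped the vehicle. The changes were 3.97 ± 0.29, 3.69 ± 0.29 and 3.88 ± 0.29 (limma adjusted p = 4.56e-13, 2.63e-12 and 7.92e-13).

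The marker lists of other cell types stayed at background beside these rises. The mean over the 5 hepatocyte markers spanned 3.13 to 3.23 in the quercetin vehicle replicates and 3.13 to 3.35 at 100 µM, and that over the 6 blood cell markers 2.86 to 3.13 and 2.80 to 3.05. Of the 6 mesenchymal markers 1 was called at 100 µM, S100A4, which fell by 0.76.

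Calls were common at these doses. The share of all tested genes called higher was 0.00829% at 1 µM, 0.0249% at 3 µM and 1.11% at 10 µM, where 0 of the 2 tested members were called. Both were called from 30 µM on, where the share was 8.4%, rising to 12.7% at 60 µM and 11.4% and 13.1% at the top 2 doses. Since the members were chosen with these results known, their calls are a description. Keeping the arrays numbered 2 left both genes called at these 4 doses, with rises at 100 µM of 3.64 ± 0.60 for CYP4F3 and 3.65 ± 0.47 for CYP4F2 (limma adjusted p = 8.04e-06 and 9.62e-08).

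From dose to dose, both genes took their main step between 10 and 30 µM, by 2.79 ± 0.26 for CYP4F3 and 2.16 ± 0.29 for CYP4F2 (limma adjusted p = 8.06e-09 and 3.42e-06, with 2.31% of genes called higher in this step). From 30 to 60 µM CYP4F3 rose by another 1.34 ± 0.26 and CYP4F2 by 1.58 ± 0.29 (limma adjusted p = 0.0195 for both). In that step only 9 genes, 0.0746%, were called, all higher, and these 2 were among them. Both calls of the 30 to 60 µM step were lost without any 1 of 5 replicates, numbers 4, 5 and 6 at 30 µM and numbers 3 and 4 at 60 µM. Their changes then lay between 1.03 and 1.65, and their adjusted p between 0.0524 and 0.126. With arrays numbered 2 kept, the step from 10 to 30 µM was still called (2.32 and 1.80, limma adjusted p = 0.0335 for both) and that from 30 to 60 µM was not (1.12 and 1.37, adjusted p = 0.851 and 0.533). From 60 to 80 µM the changes were -0.45 ± 0.26 and -0.28 ± 0.29, and from 80 to 100 µM 0.22 ± 0.26 and 0.19 ± 0.29. Neither gene was called in these steps, nor was any other gene (0% in both, at an unadjusted p under 0.05 278 and 83 genes).

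Under etoposide CYP4F2 was called at the highest dose only, where it rose by 1.51 ± 0.16 on the log2 scale (2.86-fold), to the edge of the background level. CYP4F2 stood at 3.70, 3.35, 4.81, 4.07 and 4.13 at 3 µM (numbers 1, 3, 4, 5 and 6), against 2.39, 2.38, 2.52, 2.55 and 2.65 in the vehicle. All 5 dosed replicates lay above the vehicle, 3 of them above 4, and number 4 was the highest (limma adjusted p = 6.34e-10). At 1 µM they were at 2.79, 2.80, 3.73, 2.83 and 3.11, with number 4 again the highest. These too lay above the vehicle, but the difference of 0.55 ± 0.16 (limma adjusted p = 0.00553) was under 1.5-fold, and both means were under 4. Leaving out vehicle number 6, or number 1, 3 or 5 at 1 µM, made it a call (0.59 to 0.62). The step from 1 to 3 µM was called, at 0.96 ± 0.16 (limma adjusted p = 3.72e-04), as were 6 genes in all, 0.0497%, in that direction.

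CYP4F3 was at 3.43, 2.99, 3.65, 3.42 and 3.15 at 3 µM of etoposide, against 2.81, 2.74, 2.92, 2.61 and 2.73 in the vehicle. The groups did not overlap, but every replicate was under 4. The difference was 0.56 ± 0.11 (limma adjusted p = 8.39e-05), just under 1.5-fold, so it was not called. Without vehicle number 4, or number 3 or 6 at 3 µM, it was 0.60, 0.65 and 0.61 and was called. At 1 µM the difference was 0.29 ± 0.11 (limma adjusted p = 0.042), also not called.

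From 0.003 to 0.3 µM neither gene was called. CYP4F2 spanned 2.39 to 2.88 and CYP4F3 2.50 to 3.18 over these 25 replicates, all at background. The share of all genes called higher was 0% at 0.003 and 0.01 µM (unadjusted p under 0.05 for 118 and 208 genes), 0.365% at 0.03 µM, 1.38% at 0.1 µM and 3.02% at 0.3 µM. It was 5.17% at 1 µM, with 0 of 2 members called, and 6.25% at 3 µM, with 1 of 2 called.

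**Figure D2:**
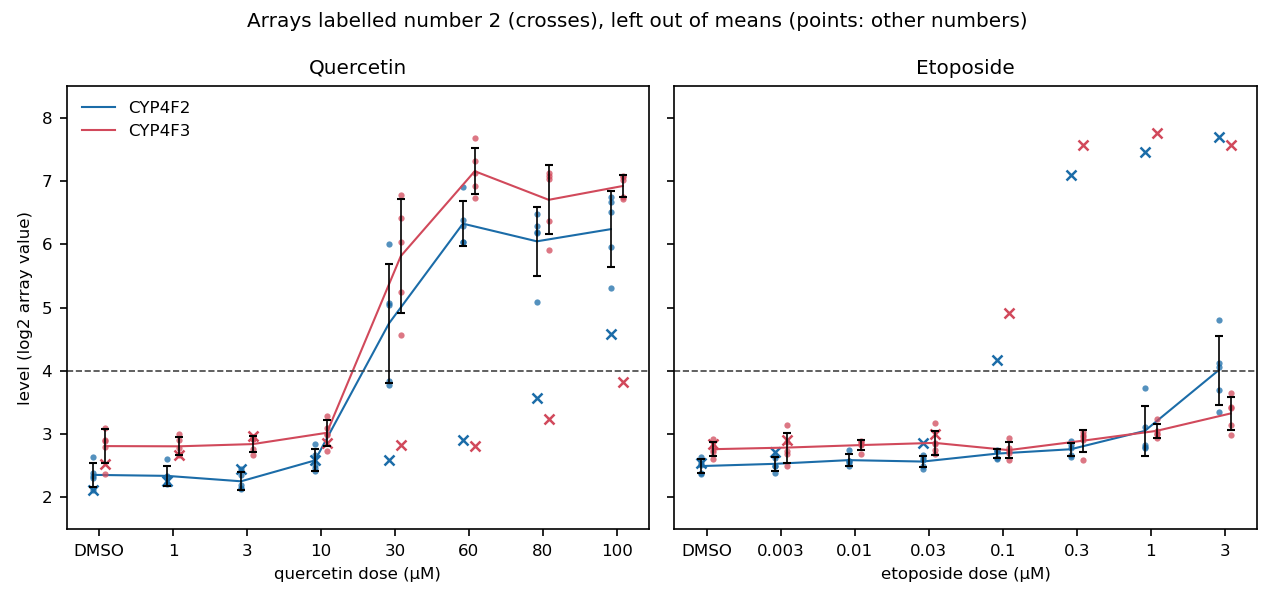
The same levels (log2 array values) of CYP4F2 and CYP4F3 against dose for quercetin and etoposide, with arrays numbered 2 as crosses and the other numbers as points (bars: mean ± SD without number 2). Crosses of the etoposide experiment lie between 7.09 and 7.75 from 0.3 µM on, above all its other replicates. Crosses of the quercetin experiment lie below all its other replicates at 30 to 100 µM.

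The arrays numbered 2 behaved otherwise. Labelled etoposide, they stood for CYP4F2 at 4.17, 7.09, 7.46 and 7.69 at 0.1, 0.3, 1 and 3 µM, and for CYP4F3 at 4.92, 7.57, 7.75 and 7.57. Labelled quercetin, they stood for CYP4F2 at 2.59, 2.91, 3.57 and 4.59 at 30, 60, 80 and 100 µM, and for CYP4F3 at 2.83, 2.82, 3.24 and 3.82. Each of these arrays lay outside the range of the other replicates of its group. With them kept, CYP4F2 at 3 µM of etoposide was still called, at 2.12 ± 0.61 (limma adjusted p = 0.00601), while the step from 1 to 3 µM was not (adjusted p = 0.914). CYP4F3 was not called there at 1.26 ± 0.66 (adjusted p = 0.147).

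MMS left both genes at background in nearly every replicate. Of 47 MMS and vehicle replicates 1 was at 4 or more, number 5 at 300 µM, with 5.24 for CYP4F2 and 4.07 for CYP4F3. The other 5 replicates at 300 µM stood at 2.63, 2.31, 2.63, 2.88 and 2.77 for CYP4F2 (numbers 1, 2, 3, 4 and 6) and at 2.43, 2.61, 2.43, 2.51 and 2.72 for CYP4F3. They overlapped the vehicle replicates, which spanned 2.24 to 2.61 and 2.22 to 2.47. With number 5 counted, 5 of 6 replicates lay above the highest vehicle replicate for CYP4F2 and 4 of 6 for CYP4F3. CYP4F2 was called at 300 µM, by 0.66 ± 0.24 (limma adjusted p = 0.0285), with both group means under 4. Without number 5 its difference was 0.22 ± 0.13 (adjusted p = 0.19), not called, and without vehicle number 3 or 6 the adjusted p was 0.0505 and 0.0558. CYP4F3 differed by 0.49 ± 0.16 (adjusted p = 0.0147) and was not called. Without number 5 its difference was 0.23.

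At 500 µM of MMS CYP4F2 was at 2.35, 2.40, 2.63, 3.37 and 2.82 and CYP4F3 at 2.30, 2.19, 2.42, 3.05 and 2.69 (numbers 2 to 6). Number 5 was again the highest for both, and the groups overlapped the vehicle. The differences were 0.29 ± 0.25 and 0.22 ± 0.17 (limma adjusted p = 0.325 and 0.261), not called. From 1 to 100 µM neither gene was called. The share of genes called higher was 0% at 1, 3, 10 and 30 µM (unadjusted p under 0.05 for 32 to 127 genes), 0.414% at 100 µM, 4.46% at 300 µM and 17.7% at 500 µM. This top dose moved the largest number of genes, and 0 of the 2 tested members were called there. With only 2 genes tested, this count cannot be told apart from the share of 17.7%.

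CYP4F11 and CYP4F12 stayed at background. Over the 40 quercetin and vehicle replicates CYP4F11 spanned 2.37 to 3.13 and its group means 2.49 to 2.77, and CYP4F12 spanned 2.79 to 3.41 with means of 2.96 to 3.18. Over the 40 etoposide and vehicle replicates the spans were 2.51 to 3.01 and 2.96 to 3.47, and over the 47 of MMS 2.27 to 2.90 and 2.94 to 3.63. Values at this level have no order, and no fold is given for them. Neighbours on chromosome 19 were alike in this, as CYP4F8 (2.33 to 3.48) and CYP4F22 (2.04 to 3.10) were under 4 in all 145 arrays.

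**Figure D3:**
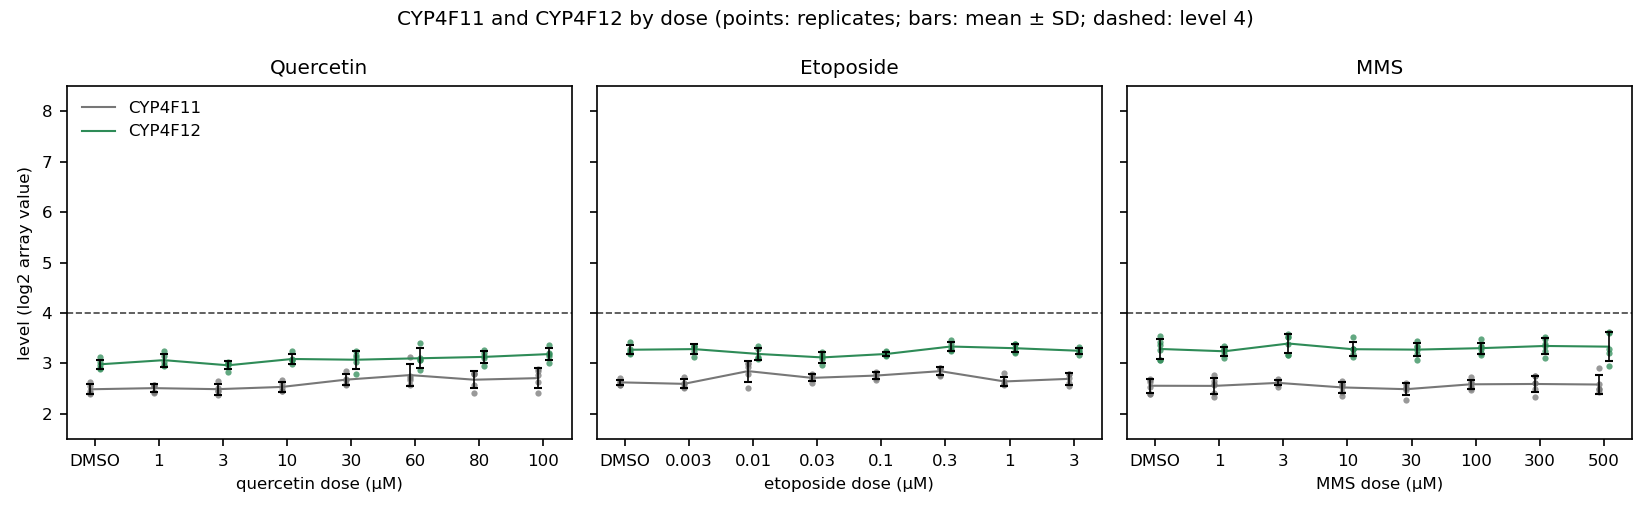
Levels (log2 array values, y axis) of CYP4F11 and CYP4F12 against dose (µM) in the 3 experiments, on the same scale as the plot of CYP4F2 and CYP4F3 by dose; points are replicates, bars mean ± SD, and the dashed line marks 4. No replicate reaches the line, the highest being 3.63 for CYP4F12 and 3.13 for CYP4F11.

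Set against each other at the highest doses, quercetin differed from etoposide and from MMS in both genes. Both genes passed the filter mainly through quercetin arrays and had vehicle means under 4, so these comparisons are a description. The change of CYP4F3 at 100 µM of quercetin was larger than that at 3 µM of etoposide by 3.54 ± 0.27 and than that at 500 µM of MMS by 3.89 ± 0.27 (limma adjusted p = 4.66e-20 and 2.99e-24). For CYP4F2 these differences were 2.37 ± 0.35 and 3.59 ± 0.35 (limma adjusted p = 3.92e-08 and 7.17e-16). Etoposide and MMS differed for CYP4F2, by 1.22 ± 0.35 (limma adjusted p = 0.0022), and not by a call for CYP4F3 (0.34 ± 0.27, adjusted p = 0.303). The size of this difference is uncertain. CYP4F2 had a mean of 4.01 at 3 µM of etoposide, and its other means here were under 4. They were 2.50 in the etoposide vehicle, 2.71 at 500 µM of MMS and 2.42 in the MMS vehicle. For CYP4F3 all means of etoposide and MMS compared here were under 4. In these 3 comparisons 10.7%, 13.7% and 15.6% of genes were called higher in the first chemical. The doses are not matched in effect, and each comparison is of those doses only. With arrays numbered 2 kept, quercetin against etoposide was no longer called for either gene, at 2.38 ± 0.76 for CYP4F3 and 1.53 ± 0.67 for CYP4F2 (adjusted p = 0.101 and 0.179).

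Between members, the changes of CYP4F2 and CYP4F3 stand side by side above, at 3.88 and 4.11 under 100 µM of quercetin and at 1.51 and 0.56 under 3 µM of etoposide. Exact permutation tests of within-array differences had been planned for 18 combinations of gene pair and chemical. In all 18 the vehicle values of both genes were at background, and CYP4F3 was under 4 in both etoposide groups. No difference between members in the size of their change is therefore read from these tests.

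**Figure D4:**
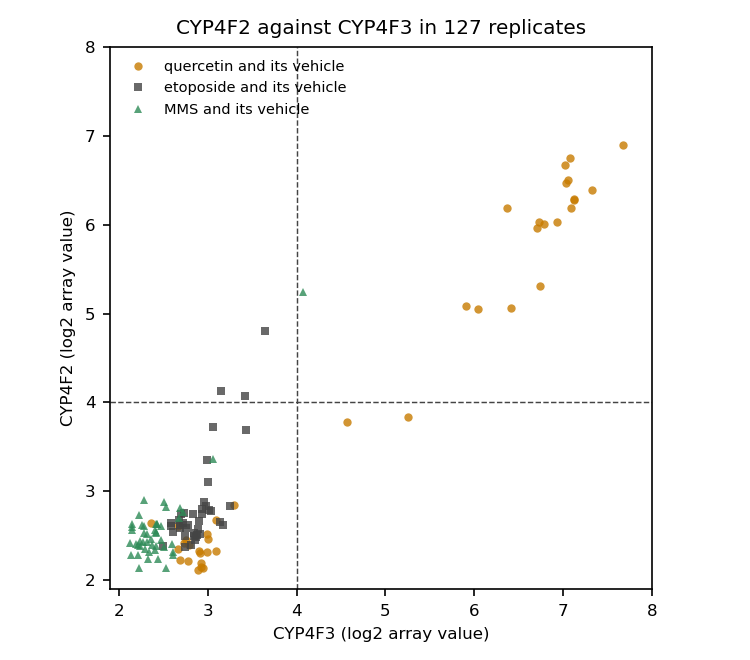
CYP4F2 (y axis) against CYP4F3 (x axis), log2 array values, in the 127 replicates; each point is a replicate, coloured and shaped by experiment, and dashed lines mark 4. Quercetin replicates at 30 to 100 µM run along a line to the upper right. Of the etoposide replicates at 3 µM, 3 exceed 4 for CYP4F2 and none for CYP4F3.

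The gene most like CYP4F2 over the 127 replicates was CYP4F3, and the reverse held too, with a Pearson r of 0.96 after each experiment was centred on its mean. Within quercetin and its vehicle r was 0.99 (40 replicates), within the 20 replicates at 30 to 100 µM 0.93, within etoposide 0.77 (40) and within MMS 0.83 (47). These replicates share arrays, doses and normalization, and r is a description. The next genes for CYP4F2 were LCE1B, a protein of the skin's cornified envelope (r = 0.89), and RAB33B, a small GTPase of the Golgi (0.88). For CYP4F3 they were OSER1-DT, a transcript divergent from OSER1 (0.91), and RAB33B (0.91). At 100 µM of quercetin the changes were 3.44 ± 0.41 for LCE1B, 1.70 ± 0.15 for RAB33B and 2.30 ± 0.20 for OSER1-DT, whose vehicle mean of 3.23 was under 4. At 3 µM of etoposide LCE1B rose too, by 2.33 ± 0.25 (limma adjusted p = 1.26e-09), while RAB33B was not called at 0.29 ± 0.10 (adjusted p = 0.0152). OSER1-DT was under 4 in both etoposide groups (3.34 and 3.43) and was not called. At 500 µM of MMS LCE1B was called as well, at 1.19 ± 0.38 (limma adjusted p = 0.00661), from a vehicle mean of 3.11, under 4. RAB33B and OSER1-DT were not called there.

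One more probe set, 206514_PM_s_at, is annotated to CYP4F2 and CYP4F3 together and names neither gene. In the quercetin experiment its mean was 2.58 in the vehicle and 3.71, 5.13, 4.65 and 5.01 at 30, 60, 80 and 100 µM. It therefore passed 4 from 60 µM on, with changes of 2.54 ± 0.24, 2.07 ± 0.24 and 2.42 ± 0.24. Its change at 30 µM was 1.12 ± 0.24, and at 3 µM of etoposide it was 0.65 ± 0.15, from means under 4 in both groups. In an unfiltered limma fit over all probe sets these 5 changes had adjusted p of 0.00117 or less.

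Genes around the CYP4F enzymes were counted at the highest doses, as lists also chosen with earlier results known. At 100 µM of quercetin 13.1% of all genes were called higher and 14.5% lower, at 3 µM of etoposide 6.25% and 6.92%, and at 500 µM of MMS 17.7% and 16.9%. At the lowest doses, etoposide 0.003 and 0.01 µM, MMS 1 to 30 µM and quercetin 1 and 3 µM, no measured member of any list was called. CDKN1A and MDM2, which p53 activates, were called higher at the highest dose of each chemical, by 1.29 ± 0.14 and 1.13 ± 0.09 under quercetin, 1.83 ± 0.09 and 1.35 ± 0.11 under etoposide and 1.41 ± 0.10 and 0.89 ± 0.13 under MMS. Both were called from 0.03 µM of etoposide and from 100 µM of MMS on, and at these starting doses neither CYP4F gene was called. Under quercetin CDKN1A and MDM2 were not called at 10 µM and were called from 30 µM on. Those are the same quercetin doses at which CYP4F2 and CYP4F3 were called. A link between these genes was not tested.

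Of 8 other CYP4 genes 2 were measured, CYP4A11 and CYP4V2, and neither was called under quercetin or etoposide at the highest dose. CYP4V2 was called under MMS (0.93 ± 0.16), with both means under 4. Of 23 other P450 genes 8 were measured. None was called at 100 µM of quercetin (median change 0.21, against 0.00 over all genes). Under etoposide CYP1A1, the aryl hydrocarbon receptor's best known target, rose by 1.04 ± 0.13 from a mean just under 4 and CYP2J2, an arachidonic acid epoxygenase, by 0.84 ± 0.15, while CYP2R1, a vitamin D hydroxylase, fell by 0.63. Under MMS CYP1A1, CYP2J2, CYP2R1 and CYP2U1 rose, by 2.26, 1.24, 0.87 and 0.99, CYP1A1 again from a mean under 4.

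Some substrates of CYP4F enzymes, such as leukotriene B4, come from eicosanoid synthesis, and 11 of its 21 listed genes were measured. At 100 µM of quercetin 3 were called higher and 3 lower, with a median change of -0.15. PLA2G4A, which frees arachidonic acid from membranes, fell from 7.11 to 3.80, under the level of 4, and PTGS2 (cyclooxygenase 2) from 8.86 to 6.34. PTGES, which makes prostaglandin E2, fell by 3.38. LTA4H, which makes leukotriene B4, the substrate of CYP4F3, rose from 10.44 to 11.15 (0.71 ± 0.11, limma adjusted p = 1.34e-06), and PTGS1 and EPHX1 rose by 0.81 and 0.59 from vehicle means under 4. LTA4H also rose under etoposide, by 0.64 ± 0.10, as 1 of 11. Under MMS PLA2G4A, PTGS2 and PTGES fell, by 1.32, 2.63 and 5.20, and PTGR1 and EPHX1 rose. ALOX5, which starts leukotriene synthesis, did not pass the filter.

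All 4 listed electron donors were measured. POR, the reductase that serves CYP4F enzymes, was not called under quercetin (0.15 ± 0.12 on means of 5.47 and 5.62), and CYB5A, a cytochrome b5, fell by 0.61. Under etoposide 0 of 4 were called. Under MMS POR rose by 1.16 ± 0.13, and CYB5A and CYB5R3 fell. Of 7 measured genes of 11 that carry omega-hydroxylated fatty acids further, 1 was called at the highest dose of quercetin. It was the aldehyde dehydrogenase ALDH3B1, which fell by 1.63. At the quercetin dose where both CYP4F genes were first called, ALDH3A2 rose by 0.66 ± 0.19 (limma adjusted p = 0.00749). ALDH3B1 was the 1 gene of this list called lower there. At the highest dose ALDH3A2 was not called (0.39). None of the 7 was called under etoposide, and ALDH3B1 and ACOT8 were lower at the highest dose of MMS.

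Of 7 genes of vitamin K and vitamin E handling 5 were measured. At a lower quercetin dose 1 of the 5 was called higher. VKORC1L1, a vitamin K epoxide reductase, was the only one called at the highest doses of quercetin and etoposide, and fell by 0.95 and by 1.05. Under MMS it fell by 0.61 and VKORC1 by 0.94, and NQO1 and AIFM2 rose by 1.42 and 0.81. Of 12 regulators written about for CYP4F genes 9 were measured. At 100 µM of quercetin PPARA and PPARD, nuclear receptors for fatty acids, rose by 1.30 ± 0.39 and 0.73 ± 0.13, and SREBF1, which drives lipid synthesis genes, fell by 0.99 ± 0.13. The other 6 measured regulators, among them NFE2L2 and RXRA, were not called there. Median changes at 100 µM of quercetin were -0.21 for the electron donors, -0.23 for the oxidation genes, -0.12 for the vitamin genes and -0.05 for the regulators, against 0.00 over all genes. Under etoposide only RARA was called and under MMS only SREBF2, and they fell by 0.59 and by 0.91.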

How the data were processed

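Per the labels, RNA of HT-1080 cells was hybridised to 145 Affymetrix arrays. The deposited log2 values are probe set summaries that the authors made with GCRMA in Partek, per the submitters' processing notes. Versions and a genome build are not given in the sources used here. Of 54613 probe sets, 40914 had 1 gene symbol in the platform annotation, 864 several and 12835 none. Probe sets at 4 or more in at least 5 arrays were kept (22765 with 1 symbol), and the one with the highest mean stood for each of 12070 genes.

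Each dose was compared with its own vehicle by limma 3.58.1 (R 4.3.3; lmFit, eBayes with trend) over the 8 groups of a chemical, with Benjamini-Hochberg adjustment over all 12070 genes. Differences between chemicals were contrasts in 1 fit of 24 groups. Exact permutation tests between members (scipy 1.17.1) were run as planned and are not read, since they rest on values at background. The fits were tested on simulated data. In 17 of 21 dose comparisons every same-numbered pair of dosed and vehicle replicates correlated by over 0.1 in its deviations from the group means, so a fit with the number as a block was run. It changed no call of a member. The members, lists, motifs and named genes were chosen with earlier results of these data known. The genes named as most alike are those with the 3 highest correlations with CYP4F2 or CYP4F3. Promoter windows are from RefSeq (GRCh38.p14), aligned with Biopython, and figures were drawn with matplotlib.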

Additional observations from a re-analysis of the deposited data

Results flagged for a closer look

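Of 96 groups of replicates, 4 genes in 24 groups, 5 had a highest or lowest replicate far from the rest by Dixon's criterion at the 95% level. Chance gives about 1 in 20, or 4.8. They were number 5 at 300 µM of MMS, high for CYP4F2 (5.24) and for CYP4F3 (4.07), number 3 at 80 µM of quercetin, low for CYP4F2 (5.09), number 4 at 0.01 µM of etoposide, low for CYP4F3 (2.69), and number 4 at 3 µM of quercetin, low for CYP4F12 (2.82). The last pair lies at background.

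The change at the highest dose differed between chemicals in 5 of 6 comparisons by limma's contrast of contrasts. These are a description, since both genes passed the filter mainly through quercetin arrays and all vehicle means were under 4. Quercetin exceeded etoposide by 3.54 for CYP4F3 and 2.37 for CYP4F2, quercetin exceeded MMS by 3.89 and 3.59, and etoposide exceeded MMS by 1.22 for CYP4F2.

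Among arrays left out of the comparisons, those numbered 2 and labelled etoposide stood above all used vehicle replicates at 0.1, 0.3, 1 and 3 µM, at 4.17, 7.09, 7.46 and 7.69 for CYP4F2 and at 4.92, 7.57, 7.75 and 7.57 for CYP4F3. The array numbered 2 at 100 µM of quercetin stood at 4.59 for CYP4F2. The probe set shared by CYP4F2 and CYP4F3 had means of 5.13 at 60 µM and 5.01 at 100 µM of quercetin. No explanation of these values was tested.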

How the results depend on the processing

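Besides leaving out single replicates, 9 other settings were tried for each dose: number 2 kept, arrays with nf in the title left out, no filter, a stricter filter, the mean over a gene's probe sets, no trend, quantile normalization over all arrays, only the dose group and vehicle in the fit, and the replicate block. The rises at 100 µM of quercetin were called in all of them (3.64 to 4.22 for CYP4F3, 3.65 to 3.88 for CYP4F2), as was CYP4F2 at 3 µM of etoposide (1.47 to 2.12). Neither gene was called at 500 µM of MMS (0.21 to 0.24 and 0.28 to 0.32). With the replicate block the 500 µM changes were 0.21 and 0.28, and the block, or pairing, changed no call of CYP4F2 or CYP4F3.

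With number 2 kept, quercetin against etoposide was lost for CYP4F3 (2.38) and CYP4F2 (1.53), and the within-array change of CYP4F3 minus CYP4F2 at 100 µM of quercetin, which is not read here, was -0.0061 in place of 0.23. CYP4F2 at 300 µM of MMS was lost with only dose and vehicle in the fit (adjusted p = 0.198).

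Leaving out 1 replicate at a time, the range for CYP4F3 at 3 µM of etoposide was 0.48 to 0.65, on both sides of the fold limit. The 30 to 60 µM step of quercetin ranged from 1.03 to 1.58 for CYP4F3 and 1.34 to 1.89 for CYP4F2, and lost its call in 5 of 15 omissions for each gene.

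Counts of called genes over all genes moved by over 1.5 times at these doses. With the block they were 183 in place of 76 at 0.03 µM of etoposide, 295 in place of 194 at 100 µM of MMS, and 18, 31 and 333 in place of 4, 11 and 215 at 1, 3 and 10 µM of quercetin. With number 2 kept they were 14 and 136 (in place of 451) at 0.03 and 0.1 µM of etoposide, and 0, 0, 24 and 1323 (in place of 2057) at 1, 3, 10 and 30 µM of quercetin. Other settings gave 2 at 3 µM, 7 and 11 at 1 µM and 344 at 10 µM of quercetin. Without 1 replicate the counts ranged from 41 to 152 at 0.03 µM of etoposide, and from 1 to 14 and 3 to 18 at 1 and 3 µM of quercetin, and 136 genes were called at 10 µM without its number 3. Precision rests on 5 or 6 replicates a group, and changes from means under 4 are uncertain in size.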
